A study of Mus musculus with 12 samples.

Results

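The genes described here are the splicing factors and RNA helicases that the authors' deposited lists name in mouse liver after loss of Apc, Myc or both. A member is a probe set with 1 gene symbol on any of the authors' 3 lists at a false discovery rate of about 5%, made with SAM (significance analysis of microarrays). Its symbol had to begin with 1 of 13 prefixes, among them Sfrs, Sf3, Hnrp, Snrp, Lsm, Rbm, Ddx, Dhx and Prpf, and 1 symbol was left out. Of 32176 deposited probe sets, 17 were members, and they stood for 17 genes. They were thus chosen by the authors' SAM statistic on these arrays, so their direction between ApcMyc and WT is no finding. Only 7 of the prefixes had a member, and no Dhx, Prpf or Ptbp gene was among them. All 17 were on the list of ApcMyc against WT, 7 as higher and 10 as lower in ApcMyc, and Ddx1 and Ddx49 were also on the list of ApcMyc against Apc as lower. None was on the list of Apc against WT.

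Every mouse carried AhCre, a Cre recombinase gene that beta-naphthoflavone switches on in liver and other tissues, and every mouse was given 3 injections of 80 mg/kg of the inducer in 1 day. Livers were taken on day 4 and liver total RNA was measured on arrays, with 3 arrays per group. ApcMyc livers carried homozygous floxed Apc and homozygous floxed Myc, Apc livers homozygous floxed Apc, Myc livers homozygous floxed Myc, and WT livers no floxed allele. The control animals therefore had Cre and inducer too, and the labels do not say which cells of the liver recombined, nor the age of the mice. The labels give each array its own identifier but do not state separate animals, so the errors here measure the spread between arrays, which may be technical.

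Splicing removes introns from new transcripts. Small nuclear RNAs carry a ring of Sm or LSm proteins. The U2 particle marks the branch point of the intron, SR proteins and hnRNP proteins steer the choice of splice sites, and helicases of the DEAD-box family rearrange RNA and its bound proteins. Growing and dividing cells make much RNA, and Myc is known to raise the expression of many genes of RNA processing. The symbols also gather genes with other work, such as Ddx11, a DNA helicase of sister chromatid cohesion, and Ddx49, whose human and yeast relatives act in ribosome assembly.

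The array titles have 2 styles, one for ApcMyc and Myc arrays and another for Apc and WT arrays. The differences of ApcMyc from Myc and of Apc from WT lie within a style, whereas in every other comparison Myc deletion and title style cannot be told apart. The median signal was 86.5 to 106.9 in ApcMyc, 42.4 to 53.7 in Apc, 59.5 to 78.9 in Myc and 35.4 to 45.3 in WT arrays before normalization. Myc itself stood at 5.37, 5.49 and 5.51 in ApcMyc, 8.73, 9.09 and 8.58 in Apc, 4.89, 5.47 and 5.30 in Myc and 6.56, 5.30 and 6.35 in WT arrays. It was lower in ApcMyc than in Apc (-3.35, adjusted p = 5.08e-05 by limma), and in Myc against WT the difference did not pass (-0.85, adjusted p = 0.0833 by limma). Whether its probes lie in the deleted part is not given in the sources used here. All levels are log2 of the quantile-normalized signal plus 16, differences and folds are on that scale, and the scale understates changes of dim probe sets. In bulk tissue, fewer cells of a type and less RNA per cell cannot be told apart. ApcMyc replicate 2 stood apart in genes of dividing cells: the summed level of the 10 measured of 12 markers was 8.79 there, at the low end of the ApcMyc range of 8.79 to 11.02, against 11.44 to 12.40 in Apc, 8.07 to 8.55 in Myc and 7.88 to 9.03 in WT arrays.

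The members were bright to dim: by mean signal they lay between the 16th percentile of all probe sets, for Ddx11, and the 93.8th, for Rbms1, with a median of 68.6. None was at the top of the list that chose them. The best placed were Lsm12, at rank 305 of 1243 lower probe sets, and Ddx11, at rank 608 of 1628 higher ones. In the authors' deposited table the SAM statistic d ran from 1.7 for Rbm17 and Rbm43, just inside the list, to 2.39 for Ddx11 among the higher members. Among the lower members it ran from -1.72 for Sfrs8, just inside, to -2.58 for Lsm12, in the authors' deposited table. Values just outside the list are not given there, and none of the 17 was among the 105 probe sets of the authors' stricter list for ApcMyc against WT.

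The difference between ApcMyc and WT, which chose the members, splits exactly into 2 parts: Apc loss averaged over both title styles, and Myc deletion together with title style averaged over both Apc states. The 7 higher members shared the sign of both parts but not their sizes. Their median was 0.50 for the Apc part and 0.53 for the Myc and style part, with the Apc part from 0.04 for Ddx11 to 0.94 for Rbms1. The 10 lower members had a median of -0.40 for the Apc part and -1.22 for the Myc and style part. In 7 of these 10 the Myc and style part was the larger, as it was in 4 of the 7 higher members. Rbm39 and Ddx1, both on the list as lower in ApcMyc than in WT, had an Apc part above 0, at 0.47 and 0.45, beside a Myc and style part of -1.71 and -1.58.

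**Figure D1:**
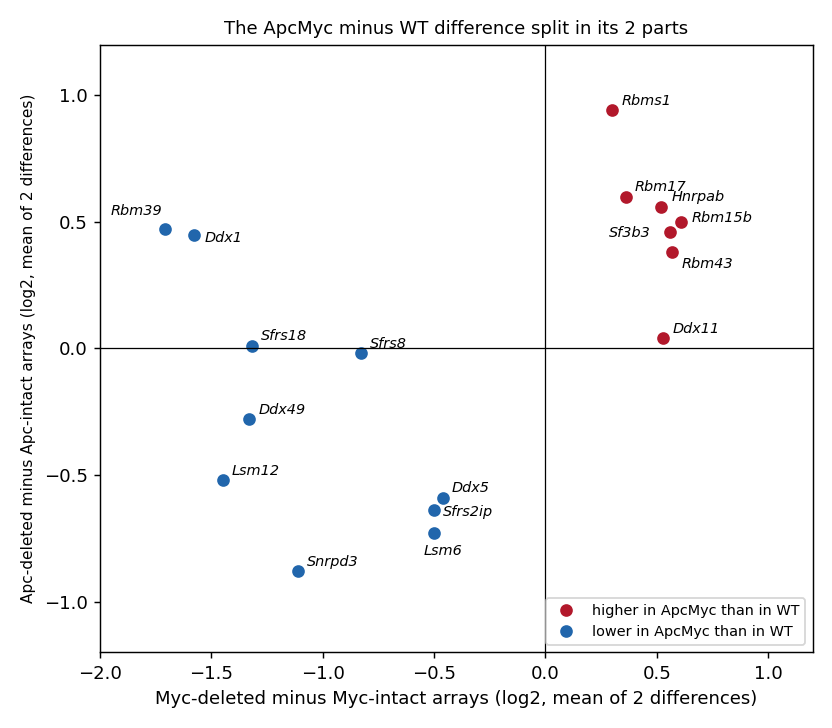
Each point is 1 member probe set. The horizontal axis is the mean of ApcMyc minus Apc and Myc minus WT, the vertical axis the mean of ApcMyc minus Myc and Apc minus WT, both in log2(signal + 16), and the axes sum to ApcMyc minus WT; the 7 higher members (red) lie together at the upper right, and the 10 lower members (blue) spread from Rbm39 at the upper left to Snrpd3 at the bottom.

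Arrays were also compared one by one. In 7 of the 17 members the arrays with and without Apc deletion did not overlap, in the same direction, both in ApcMyc against Myc and in Apc against WT. Rbms1, Rbm17, Hnrpab and Ddx1 were higher with Apc deleted, and Lsm6, Sfrs2ip and Ddx5 were lower; of all probe sets 5.97% did this upwards and 6.72% downwards. In 4 members, Ddx1, Ddx49, Rbm39 and Sfrs8, all 6 arrays with Myc deleted lay below all 6 arrays with Myc intact, as did 3.88% of all probe sets. No member had all 6 Myc-deleted arrays above (3.91% of all probe sets). Since ApcMyc and WT arrays chose the members, a surplus over these shares follows in part from the choice and nothing is read from it.

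**Figure D2:**
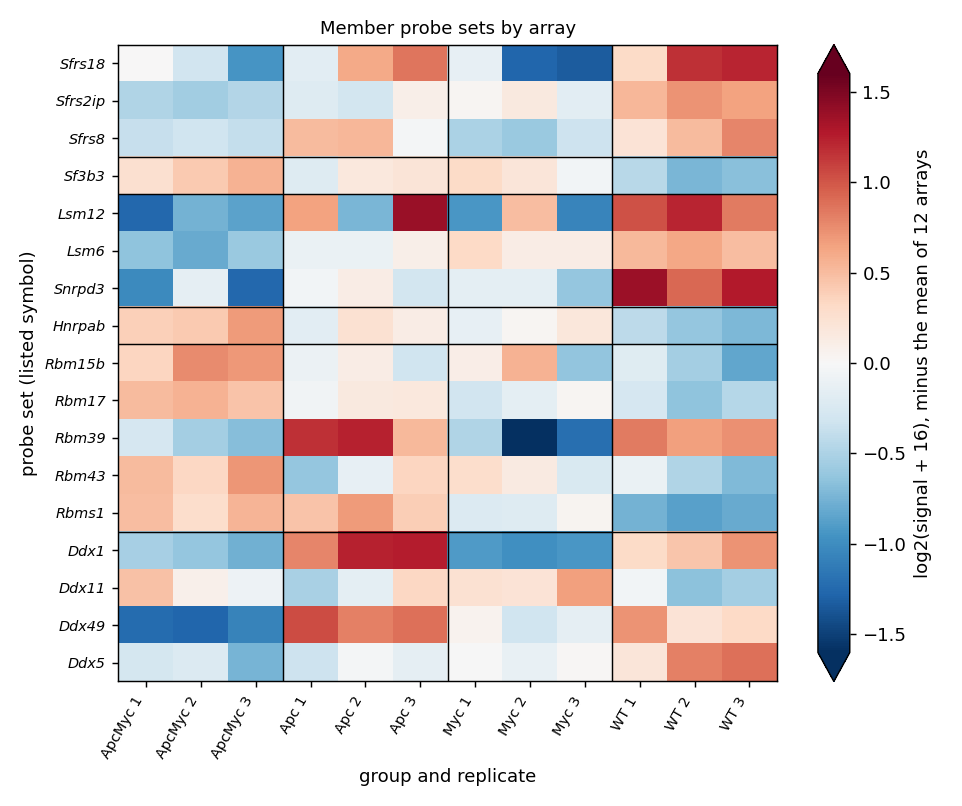
Rows are the 17 member probe sets by family and columns the 12 arrays, in the order ApcMyc, Apc, Myc and WT; colour is log2(signal + 16) minus the row's mean over the arrays, red above and blue below it. Ddx1 and Rbm39 are blue in all ApcMyc and Myc arrays and red in all Apc and WT arrays, whereas Rbms1 is red in all ApcMyc and Apc arrays.

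Promoter sequence is shown because Myc binds the E-box CACGTG and the groups differ in Myc. RefSeq windows of 250 bases before to 50 after the start (GRCm38.p6) were found for 14 of the 17 genes, 21 windows in all. The E-box, a palindrome and so the same on both strands, was in a window of 3 of the 14, against 8.09% of 27025 genes. These are the stretches around it, before the start and 5′ to 3′ in the direction of the gene, with the E-box in capitals.
Ddx5: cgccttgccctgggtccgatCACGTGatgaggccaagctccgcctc
Rbm15b: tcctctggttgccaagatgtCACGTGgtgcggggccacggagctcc
Rbm43: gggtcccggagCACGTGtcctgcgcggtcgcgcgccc
The stretch of Ddx5 lies at chr11:106788912-106788957, that of Rbm15b at chr9:106887204-106887249 and that of Rbm43, from 1 of its 2 windows, at chr2:51934858-51934894, all on the minus strand. The E-box begins 30, 154 and 239 bases before the start in these genes. CTTTGAT, a form of the site that the TCF partners of beta-catenin bind, was searched on both strands and was in 1 of the 14, in the other window of Rbm43, against 4.29% of all genes. The motifs share no bases with each other. Of the 3 genes with an E-box, Ddx5 was lower and Rbm15b and Rbm43 were higher in ApcMyc than in WT, the comparison that chose them. In Myc against WT the differences were -0.66, 0.53 and 0.49 (adjusted p = 0.0632, 0.254 and 0.242 by limma). Binding of Myc was not measured, and a link between the E-box and these levels was not tested.

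Among the SR-related genes all 3 members were lower in ApcMyc. They were listed under old symbols: Sfrs2ip is now Scaf11, a partner of the SR protein SC35, Sfrs8 is Sfswap, the relative of a fly regulator of alternative splicing, and Sfrs18 is Pnisr. Sfrs2ip stood at 6.72, 6.64 and 6.73 in ApcMyc, 7.0, 6.90 and 7.30 in Apc, 7.23, 7.36 and 7.03 in Myc and 7.73, 7.92 and 7.84 in WT arrays. Each deletion alone thus went with a lower level than WT and ApcMyc was lowest, with no array of ApcMyc overlapping another group. The difference was -0.51 in ApcMyc against Myc and -0.76 in Apc against WT (SE 0.157 each).

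Sfrs8 had 5.94, 6.0 and 5.93 in ApcMyc, 6.82, 6.84 and 6.28 in Apc, 5.81, 5.72 and 5.98 in Myc and 6.53, 6.82 and 7.09 in WT arrays. Here the level went with Myc deletion or title style and not visibly with Apc, at 0.12 in ApcMyc against Myc and -0.17 in Apc against WT (SE 0.192 each). Sfrs18 was the noisiest of the 3, at 6.64, 6.32 and 5.68 in ApcMyc, 6.46, 7.23 and 7.48 in Apc, 6.50, 5.36 and 5.30 in Myc and 6.93, 7.80 and 7.85 in WT arrays. Its Apc and WT arrays overlapped, as did its ApcMyc and Myc arrays.

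Of the U2 particle only Sf3b3 was a member. It codes for a subunit of the SF3B complex that helps U2 recognise the branch point. It had 9.03, 9.19 and 9.32 in ApcMyc, 8.56, 8.94 and 8.98 in Apc, 9.07, 8.96 and 8.72 in Myc and 8.32, 8.04 and 8.10 in WT arrays. The WT arrays were below all others, the ApcMyc arrays were above the Apc arrays, and the Myc arrays overlapped with both (means 9.18, 8.82 and 8.92 in ApcMyc, Apc and Myc, against 8.16 in WT, with SD 0.143, 0.232, 0.180 and 0.147, n = 3 each).

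The Sm and LSm genes were lower in ApcMyc, all 3 of them. Snrpd3 codes for the Sm protein D3 of the ring on spliceosomal small nuclear RNAs. It stood at 5.40, 6.27 and 5.16 in ApcMyc, 6.37, 6.54 and 6.12 in Apc, 6.26, 6.26 and 5.80 in Myc and 7.78, 7.34 and 7.69 in WT arrays. WT was again alone, here on top, and the deleted groups overlapped. Its difference between ApcMyc and WT was -1.99, a 3.97-fold lower level.

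Lsm6 belongs to the LSm ring that binds U6 small nuclear RNA and, with another partner, takes part in mRNA decay. It had 8.20, 8.04 and 8.25 in ApcMyc, 8.74, 8.74 and 8.94 in Apc, 9.17, 8.96 and 8.97 in Myc and 9.36, 9.46 and 9.34 in WT arrays. The groups formed a staircase without overlap, with ApcMyc lowest, then Apc, then Myc, then WT. Its difference was -0.87 in ApcMyc against Myc and -0.58 in Apc against WT (SE 0.143 each). The identifier of its probe set ends in _s_at, which marks a set that may match more than one gene.

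Lsm12, an LSm-domain protein outside those rings, varied more than any other member. It had 5.68, 6.18 and 6.08 in ApcMyc, 7.58, 6.2 and 8.32 in Apc, 6.01, 7.43 and 5.88 in Myc and 7.95, 8.15 and 7.77 in WT arrays. Apc replicate 2 and Myc replicate 2 sat away from the rest of their groups, and the SD was 1.08 in Apc and 0.860 in Myc, against 0.187 in WT (n = 3 each). Its differences of -0.46 in ApcMyc against Myc and -0.59 in Apc against WT (SE 0.478 each) were close to the error.

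The only hnRNP member, Hnrpab, now Hnrnpab, codes for an RNA-binding protein of nuclear transcripts. It had 8.80, 8.83 and 9.10 in ApcMyc, 8.24, 8.66 and 8.53 in Apc, 8.28, 8.44 and 8.59 in Myc and 8.0, 7.79 and 7.69 in WT arrays. ApcMyc was above and WT below every other array, while Apc and Myc overlapped. The difference was 0.47 in ApcMyc against Myc and 0.65 in Apc against WT (SE 0.170 each), or 0.26 and 0.68 with arrays scaled to a common median.

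**Figure D3:**
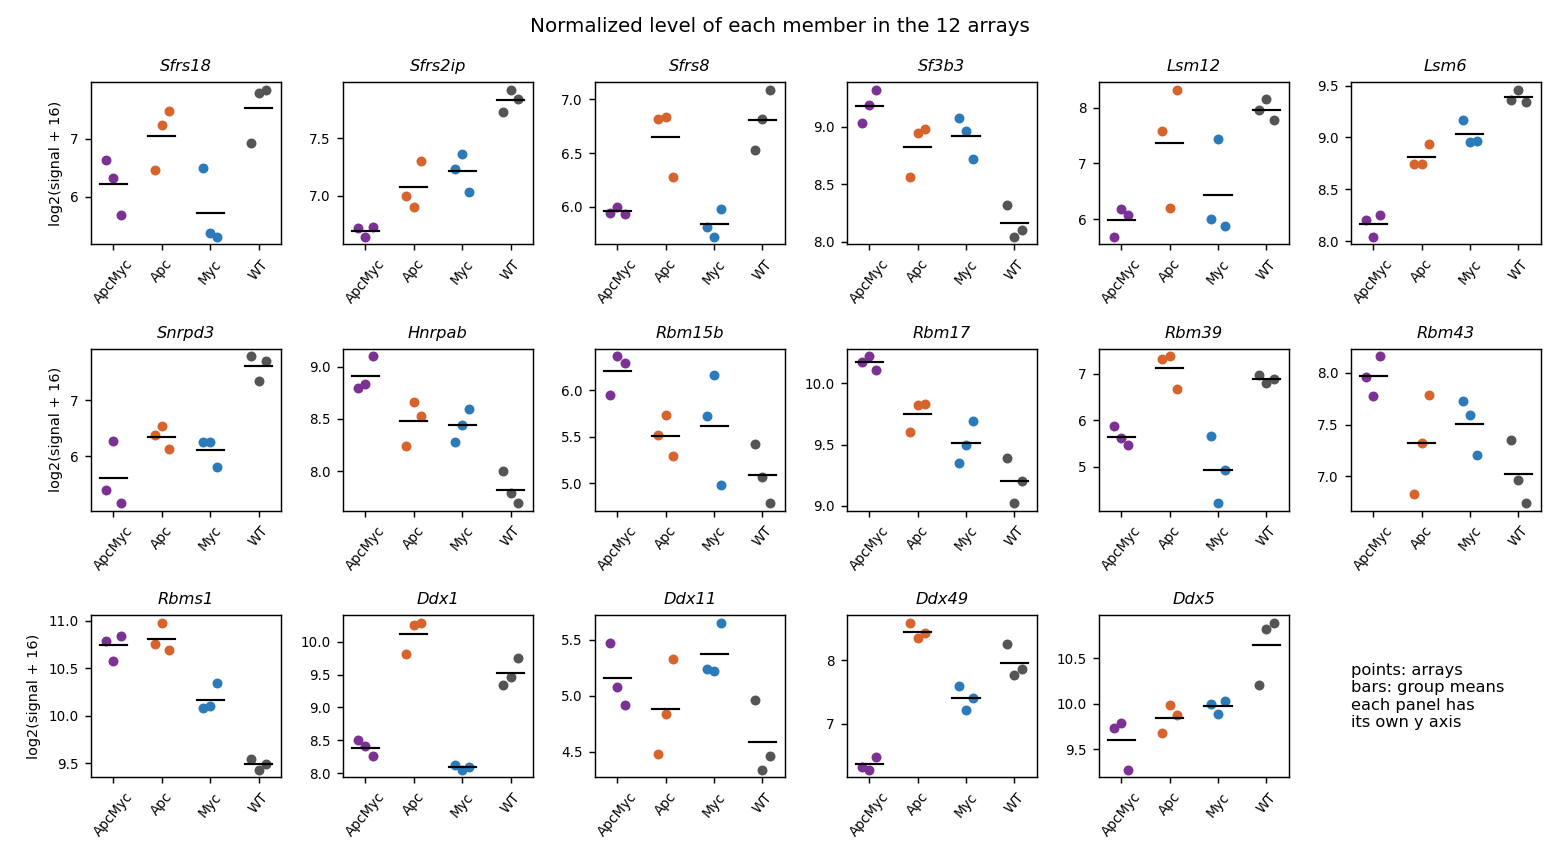
Each panel shows 1 member, with log2(signal + 16) on its own vertical axis, the 3 arrays of each group as points and the group mean as a bar. Lsm6 falls in steps with ApcMyc lowest and WT highest, Ddx49 is lowest in ApcMyc at 6.27 to 6.48, and Lsm12 has an Apc array at 6.2 and a Myc array at 7.43 away from their groups.

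Of the 5 genes with RNA-binding motif symbols, 4 were higher in ApcMyc than in WT and Rbm39 was lower. Rbms1 was the brightest member and binds single-stranded nucleic acid; its human relative was described as a binder of a DNA element near MYC. It had 10.79, 10.58 and 10.84 in ApcMyc, 10.76, 10.98 and 10.69 in Apc, 10.08, 10.10 and 10.34 in Myc and 9.55, 9.43 and 9.49 in WT arrays. The Apc-deleted groups overlapped each other and lay above the Myc arrays, which lay above the WT arrays. The difference was 0.56 in ApcMyc against Myc and 1.32 in Apc against WT (SE 0.152 each), and the second of these, 2.5-fold, was the highest of any member in Apc against WT. Scaled to a common median, the arrays gave 0.24 and 1.41.

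Rbm15b, a relative of Spen that takes part in the methylation of adenosine in RNA, had 5.95, 6.37 and 6.30 in ApcMyc, 5.52, 5.73 and 5.29 in Apc, 5.72, 6.17 and 4.98 in Myc and 5.42, 5.07 and 4.78 in WT arrays. Its ApcMyc arrays were above those of Apc and WT, and its Myc arrays spanned nearly the whole range. Rbm17, which acts at the 3′ splice site, was 10.11 to 10.22 in ApcMyc, 9.60 to 9.83 in Apc, 9.35 to 9.69 in Myc and 9.02 to 9.39 in WT arrays. Its difference was 0.66 in ApcMyc against Myc and 0.55 in Apc against WT (SE 0.157 each). Apc loss thus went with a rise in both Myc states. With arrays scaled to a common median the rises were less alike, at 0.35 in ApcMyc against Myc and 0.61 in Apc against WT. Rbm43 was 7.78 to 8.16 in ApcMyc, 6.83 to 7.79 in Apc, 7.21 to 7.73 in Myc and 6.74 to 7.35 in WT arrays, and its Apc arrays overlapped with all other groups.

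Rbm39, a splicing factor related to U2AF and a coactivator of transcription, ran the other way. It had 5.88, 5.61 and 5.47 in ApcMyc, 7.32, 7.38 and 6.67 in Apc, 5.67, 4.21 and 4.94 in Myc and 6.98, 6.81 and 6.89 in WT arrays. The Myc arrays were lower than the WT arrays by 1.95 in the mean, a size that depends on the 16 added since Myc replicate 2 was near the floor, and the Apc and WT arrays overlapped.

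Among the genes with Ddx symbols, Ddx1, Ddx49 and Ddx5 were lower in ApcMyc than in WT and Ddx11 was higher. Ddx1, a helicase that works with the tRNA ligase, had 8.5, 8.42 and 8.26 in ApcMyc, 9.82, 10.26 and 10.29 in Apc, 8.13, 8.05 and 8.10 in Myc and 9.34, 9.47 and 9.75 in WT arrays. The Myc-deleted arrays were lower throughout, and within each title style the Apc-deleted arrays were the higher ones, by 0.30 in ApcMyc against Myc and 0.60 in Apc against WT (SE 0.172 each). The first of these was not called (adjusted p = 0.292 by limma). Scaling the arrays to a common median gave 0.10 and 0.68. The identifier of its probe set ends in _x_at, which marks a set with probes that may match other sequences.

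Ddx49 had 6.31, 6.27 and 6.48 in ApcMyc, 8.59, 8.35 and 8.42 in Apc, 7.60, 7.22 and 7.4 in Myc and 8.26, 7.76 and 7.86 in WT arrays. The 4 groups did not overlap at all, with ApcMyc lowest and Apc highest. Apc loss went with a lower level where Myc was deleted (-1.05 in ApcMyc against Myc) and with a higher level where Myc was intact (0.49 in Apc against WT, SE 0.173 each). The fall passed the threshold (adjusted p = 0.00196 by limma) and the rise did not (adjusted p = 0.0778). Between ApcMyc and Apc it was 4.27-fold lower (-2.10).

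Ddx5, a helicase of splicing and microRNA processing that in human cells also works as a coactivator of beta-catenin, had 9.73, 9.79 and 9.27 in ApcMyc, 9.68, 9.98 and 9.87 in Apc, 10, 9.89 and 10.03 in Myc and 10.20, 10.82 and 10.89 in WT arrays. The WT arrays were the highest, and the ApcMyc and Apc arrays overlapped. Its difference was -0.38 in ApcMyc against Myc and -0.79 in Apc against WT (SE 0.206 each). Ddx11 was dim, at 4.92 to 5.47 in ApcMyc, 4.48 to 5.33 in Apc, 5.22 to 5.65 in Myc and 4.34 to 4.96 in WT arrays; its ApcMyc and WT arrays overlapped on this scale, although the authors' list holds it as higher.

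**Figure D4:**
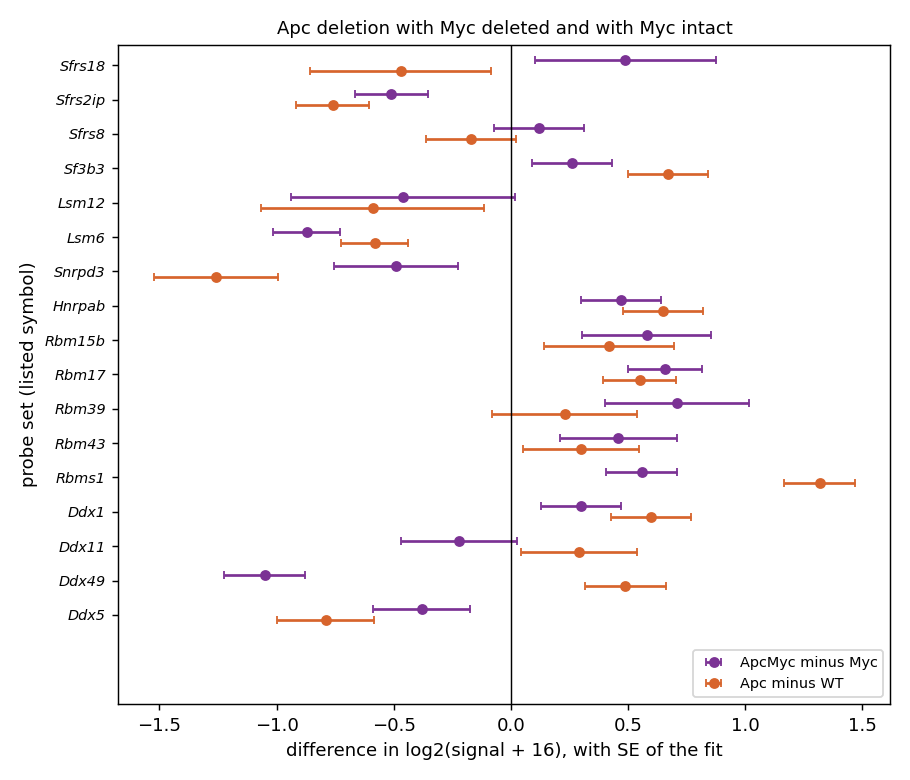
For each member the upper point is ApcMyc minus Myc and the lower point Apc minus WT, in log2(signal + 16), with the SE of the fit as bars. Sfrs18, Sfrs8, Ddx11 and Ddx49 have their points on opposite sides of 0, and those of Ddx49 lie farthest apart, at -1.05 and 0.49.

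Over the higher members the median difference was 0.47 in ApcMyc against Myc and 0.55 in Apc against WT, and over the lower members -0.42 and -0.53. The 0.47 was 0.31 without Myc replicate 3, and the -0.42 was -0.19 without Myc replicate 2 and -0.24 without ApcMyc replicate 3. Of the 17, 2 were higher and 3 lower at an adjusted p under 0.05 in ApcMyc against Myc, beside 6.64% and 6.76% of all probe sets, and 5 were higher and 4 lower in Apc against WT, beside 7.87% and 7.68%. Over all 32115 probe sets tested these medians were -0.0164 and -0.0212. Both comparisons hold ApcMyc or WT arrays, which chose the members, so these are descriptions. In Myc against WT the medians were 0.61 over the higher and -1.2 over the lower members, against 0.0135 over all probe sets, and 3 members were higher and 6 lower at that threshold, beside 4.05% and 5.05%. Since ApcMyc or WT arrays are in each of these comparisons, nothing is read from the counts.

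The comparison of Apc with Myc uses no array of ApcMyc or WT, so its array errors are separate from those of the list that chose all 17 members. It is not independent of that choice otherwise. The Myc and style part enters both comparisons, with opposite signs. A member listed as lower in ApcMyc through that part would be higher in Apc here, so the calls are descriptions. Ddx1 and Ddx49 were also on the list of ApcMyc against Apc as lower, and that list used these same Apc arrays. The comparison of Apc with Myc sets 2 single deletions side by side, across title styles. With only these arrays fitted in limma, 6 of the 17 members were called at an adjusted p under 0.05, all higher in Apc; 11.5% of all probe sets were called higher and 12% lower. The calls higher in Apc were Rbm39 (difference 2.18, SE 0.367, adjusted p = 0.00541 by limma), Ddx1 (2.03, SE 0.179, adjusted p = 0.000468) and Sfrs18 (1.33, SE 0.377, adjusted p = 0.0377). Ddx49 (1.04, SE 0.169, adjusted p = 0.00475 by limma), Sfrs8 (0.81, SE 0.200, adjusted p = 0.0229) and Rbms1 (0.64, SE 0.166, adjusted p = 0.0280) were called as well. The size for dim members hung on the value added before the log: with 1 and with 64 in place of 16 the difference was 3.30 and 1.23 for Rbm39, 1.68 and 0.83 for Sfrs18 and 1.01 and 0.50 for Sfrs8, each still called with all groups fitted. Of these, 5 had been lower in ApcMyc than in WT and Rbms1 had been higher. Apc arrays lay above Myc arrays without overlap in all of them but Sfrs18. The share of all probe sets that did so is not given here, so nothing is read from this. With all groups fitted, the adjusted p of Sfrs18 was 0.0729 to 0.0898 without Apc replicate 2 or 3 or Myc replicate 2 or 3, and Lsm12 was called without Apc replicate 2 or Myc replicate 2 (adjusted p = 0.0230 and 0.0481).

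Likewise the difference between Myc and WT uses no array of the list of ApcMyc against Apc, which held Ddx1 and Ddx49. It crosses Myc deletion and title style in the same order as that list, so a difference of style would recur. WT arrays also helped to choose the 2 genes through the list of ApcMyc against WT. The values are thus descriptions. Of these 2, Ddx1 was lower in Myc arrays (-1.43, SE 0.172, adjusted p = 0.000725 by limma), and Ddx49 did not pass (-0.56, SE 0.173, adjusted p = 0.0648). With only the Myc and WT arrays fitted in limma, these adjusted p were 0.00774 and 0.108. Over all probe sets, with arrays scaled to a common median in place of quantiles, 2273 were higher and 1533 lower in Myc against WT, against 1302 and 1623 with quantiles.

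Of 127 other genes of splicing and RNA unwinding whose symbols lie outside the prefixes, 13 are named by the lists and so measured here. In ApcMyc against Myc 2 of the 13 were called higher and 2 lower, beside 6.64% and 6.76% of all probe sets; with arrays scaled to a common median the calls over all probe sets were 1768 higher and 3554 lower, against 2131 and 2171. Those with the smallest p included Celf2, a regulator of alternative splicing (2.48), Thoc3 of the mRNA export complex THO (1.27), Qk (-0.87), Skiv2l, a helicase of RNA decay (-0.80) and Isy1 (-0.55), the last not called. In Apc against WT 3 of the 13 were called higher and 1 lower, beside 7.87% and 7.68% of all probe sets. These genes too are named only because the lists hold them.

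Markers of other cells moved across the same groups, but a marker counts as measured only where the authors' lists name it. Markers off the lists could thus not appear. Of the 2517 listed probe sets with 1 symbol, 2432 were on the list of ApcMyc against WT. A difference between ApcMyc and WT in the sums below is therefore in part built in. The summed level of the 3 measured of 8 macrophage markers was 10.84 to 11.29 in ApcMyc, 9.18 to 9.82 in Apc, 10.68 to 11.09 in Myc and 8.98 to 10.43 in WT arrays. The 2 measured of 9 lymphocyte markers had 7.43 to 8.18 in ApcMyc, 6.18 to 6.34 in Apc, 7.27 to 7.38 in Myc and 6.09 to 7.08 in WT arrays. Both lists were thus higher in the Myc-deleted arrays, the arrays in which Ddx1, Ddx49, Rbm39 and Sfrs8 were lower. The 4 measured of 8 endothelial markers had 9.97 to 10.15 in ApcMyc, 8.36 to 9.03 in Apc, 9.03 to 9.08 in Myc and 8.07 to 9.31 in WT arrays. The 3 measured of 10 hepatocyte markers, Apoa1, Apob and Serpina1a, had 13.87 to 14.23 in ApcMyc, 14.89 to 14.98 in Apc, 14.85 to 14.94 in Myc and 15.13 to 15.15 in WT arrays. They were thus present in every array, and lowest in ApcMyc, but hepatocyte markers off the lists could not be looked up. The 5 measured of 8 red cell markers were 10.85 to 11.21 in ApcMyc, 10.31 to 11.08 in Apc, 9.78 to 10.05 in Myc and 10.38 to 10.48 in WT arrays. Of these 5, Car2 alone was higher with Apc deleted (3.24 in ApcMyc against Myc and 3.61 in Apc against WT). The other 4 were called lower in ApcMyc against Myc. In Apc against WT, Alas2 (-2.4), Klf1 (-1.13) and Car1 (-1.79) were called lower, and Slc4a1 (-0.15) was not called. The red cell sum was thus higher in ApcMyc than in Myc arrays although 4 of its 5 markers were lower. The 1 stellate cell marker of 6 measured, Pdgfrb, was 5.92 to 6.17 in ApcMyc, 5.69 to 6.82 in Apc, 6.59 to 6.87 in Myc and 7.22 to 7.73 in WT arrays. No bile duct marker was named by the lists, so none could be looked up. The part of these shifts in the members' levels was not tested.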

How the data were processed

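The authors deposited, for each of 12 mouse liver arrays, a score per probe set; the values show it to be the log of the array's signal, centred and divided by the array's SD. Signals were recovered from these scores on a grid of 0.1 with a floor of 1. They were quantile-normalized over all 32176 probe sets and are used as log2 of the signal plus 16. After 61 control probe sets were dropped, 4 group means were fitted to 32115 probe sets with limma 3.58.1 in R 4.3.3, with Benjamini-Hochberg adjustment within each comparison and calls at 0.05.

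The authors' lists were made with SAM, 2 class unpaired with 100 permutations, per the file headers. Their upstream image processing is not given in the sources used here. Gene symbols come from the authors' lists, so only probe sets on a list have a name; 13 member symbols are current and 4 were updated through RefSeq. The members, gene lists and tests were chosen with earlier results of these data known. Genes were named by a rule. Given array by array are, in each family, the 3 members with the largest difference between ApcMyc and WT, and those on the other lists. Given by a difference are the 6 other genes of splicing with the smallest p in ApcMyc against Myc, of which 1 is not reported here. A test of members on the Apc against WT list had none to work on. The comparison of Apc with Myc was added after the files were seen. Equal replicate numbers did not pair the arrays (correlations of deviations 0.0627, 0.00557 and -0.0122 between Apc and WT). The number of arrays limits the precision. Alternatives were another scaling, the scores as deposited, other pseudocounts, a filter on dim probe sets, an intensity trend, fits of the compared groups only, a replicate block, and each array left out.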

Additional observations from a re-analysis of the deposited data

Results flagged for a closer look

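Ddx49 was singled out because its arrays moved in opposite directions, without overlap, in the 2 comparisons of Apc loss: down in ApcMyc against Myc (-1.05) and up in Apc against WT (0.49). By itself the rise did not pass the threshold (adjusted p = 0.0778 by limma). The difference in ApcMyc against Myc less that in Apc against WT was -1.54 (SE 0.245). The fit gives it an adjusted p of 0.0146 by limma, but ApcMyc, Apc and WT arrays chose the member, so an independent test of this difference was not made. Of all probe sets 2.18% moved in opposite directions without overlap, and Ddx49 was the 1 member among 17 to do so.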

How the results depend on the processing

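No direction of the summarised differences reversed under the alternatives run, and 96 recomputed values over members moved by less than 1 SD between replicates or, for counts, by at most 1.5 times, while 10 moved by more. Some of the 96 medians could not move. Fitting only the compared groups, or adding the replicate block, leaves a difference of group means as it was. The SD is on the log2 scale, so it is no fair measure for medians of the deposited scores. With the scores as deposited, in SDs of an array and so on another scale, the medians were 0.29 over higher and -0.22 over lower members in Apc against WT, 0.19 over higher members in ApcMyc against Myc, and 0.30 and -0.54 in Myc against WT. With a common median the median over higher members was 0.26 in ApcMyc against Myc. With 64 in place of 16 the medians in Myc against WT were 0.37 and -0.85, and Ddx49 was called there too, making 2 calls, as it was with dim probe sets left out (2 calls, adjusted p = 0.0310 and 0.0265 by limma). Leaving out each array in turn gave medians of 0.46 to 0.64 and -0.67 to -0.40 in Apc against WT, 0.31 to 0.53 and -0.48 to -0.19 in ApcMyc against Myc (-0.18 with the scores), and 0.55 to 0.70 and -1.26 to -1.08 in Myc against WT. It left 5 to 6 members called in Apc against Myc, and 1 in Myc against WT throughout. Members without overlap the same way in both comparisons of Apc loss were 7, with 8 without ApcMyc replicate 2 and 6 with a common median; members without overlap by Myc deletion were 4, with 3 under a common median. With the replicate number as a block the medians in Apc against WT were 0.55 and -0.53, and over all probe sets 1162 were called higher and 999 lower, against 1659 and 1492 without the block in the same arrays; the numbers do not pair the arrays. The small difference of Hnrpab between Apc and Myc (0.04) was below 0 under both other scalings. No detection call is used here, so for dim members such as Ddx11 a level near background cannot be told from a low one.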
